A study of Rattus norvegicus with 36 samples.

Results

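Late dedifferentiation of iAM-1 cells was followed from day 12 (D12) to day 18 (D18) of culture. iAM-1 cells descend from atrial myocytes of newborn Wistar rats and were made conditionally immortal: doxycycline switches on a large T antigen carried into them by a vector. Per the labels' protocols the cells multiplied in 100 ng/ml doxycycline before D0, differentiated without it until D9, and received 100 ng/ml again from then on, so the D12 and D18 cultures both carried the same constructs and the same drug and differed in how long it had been back. The comparison was chosen by day and not by any measured value: it uses the 4 D12 and the 4 D18 libraries, 8 of the 36 libraries of the series, which has 4 on each of 9 days. Libraries were made from poly(A) RNA with a directional kit. All of them come from 1 cell line, and whether the 4 samples of a day grew apart is not in the labels. The p-values therefore cover the scatter among these samples alone, and that scatter may be technical.

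A heart muscle cell withdraws from the cell cycle as it matures. It builds sarcomeres, the repeated units of actin, myosin and titin that shorten, and fills with mitochondria that burn fatty acids. Large T antigen, a viral protein, binds the retinoblastoma proteins and p53, which frees E2F factors to drive genes of DNA replication. A dividing muscle cell takes its sarcomeres apart, so a culture that dedifferentiates is read by the fall of contractile and mitochondrial genes and by the rise of the genes of S phase and mitosis. Atrial cells also make hormones, of which atrial natriuretic peptide (Nppa) is the best known.

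Levels below are counts per 1000000 reads on the authors' scale (CPM), and the values of a day are given in the order of replicates 1 to 4. The libraries held 30.7 to 40.6 M recovered reads (M, 1000000), so that 1 read was worth 0.0220 to 0.0288 CPM. The 4 D12 libraries did not resemble each other as the D18 libraries did. On log2 values D12 replicates 1 and 2 correlated at r = 0.984 and replicates 3 and 4 at 0.994, but the 4 pairs between them at 0.940 to 0.967, across genes, while the D18 pairs lay between 0.991 and 0.997. The median SD of a gene over the 4 libraries was 0.247 on the log2 scale at D12 and 0.119 at D18, and 260 genes had an SD above 1 at D12 against 3 at D18. Nothing in the labels tells the 4 D12 samples apart, so each is shown by itself. Some of the results that depend on 1 of them, but not all, are also given without it.

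The atrial label was checked against markers. All 7 markers of the atrial set (Myl7, Myl4, Nppa, Sln, Kcnj3, Tnnt2 and Actn2) were listed, though Tnnt2 and Actn2 are sarcomere genes not particular to atrial cells. Their summed level was 32962 to 45713 CPM over the D12 libraries and 14707 to 18346 CPM over the D18 libraries. Nppa was the largest part of the sum on both days, at 23491 to 31407 and 7087 to 9696 CPM. Between the days Nppa, Myl4, Sln and Actn2 fell, while Myl7, Kcnj3 and Tnnt2 were not called. Of a short set of defining markers of other cell types, those with no row in the table were not analysed here, since every listed row has reads in every library. Of the short fibroblast set Thy1, Pdgfra and Col1a1 had rows, which summed to 8.26 to 13.6 CPM at D12 and 7.73 to 12.0 CPM at D18. Of the short endothelial set Vwf had a row, at 0.310 to 0.913 CPM at D12 and 0.769 to 1.97 CPM at D18. Of the short macrophage set Csf1r had one, at 0.279 to 1.30 and 0.198 to 0.340 CPM. The wider marker lists hold genes that were not low in these cells. Vim reached 1209 CPM and Myh2 157 CPM at D12, and Kdr reached 206 CPM and Fbln1 134 CPM at D18, and all 4 changed between the days. The smooth muscle markers, which embryonic heart muscle also uses, summed to 2696 to 4757 CPM at D12 and 3702 to 4244 CPM at D18. The ventricular markers Myl2 and Irx4 and the skeletal muscle markers Myod1, Myog and Myh1 had no row. What part cells of other types had in the results below was not tested.

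**Figure D1:**
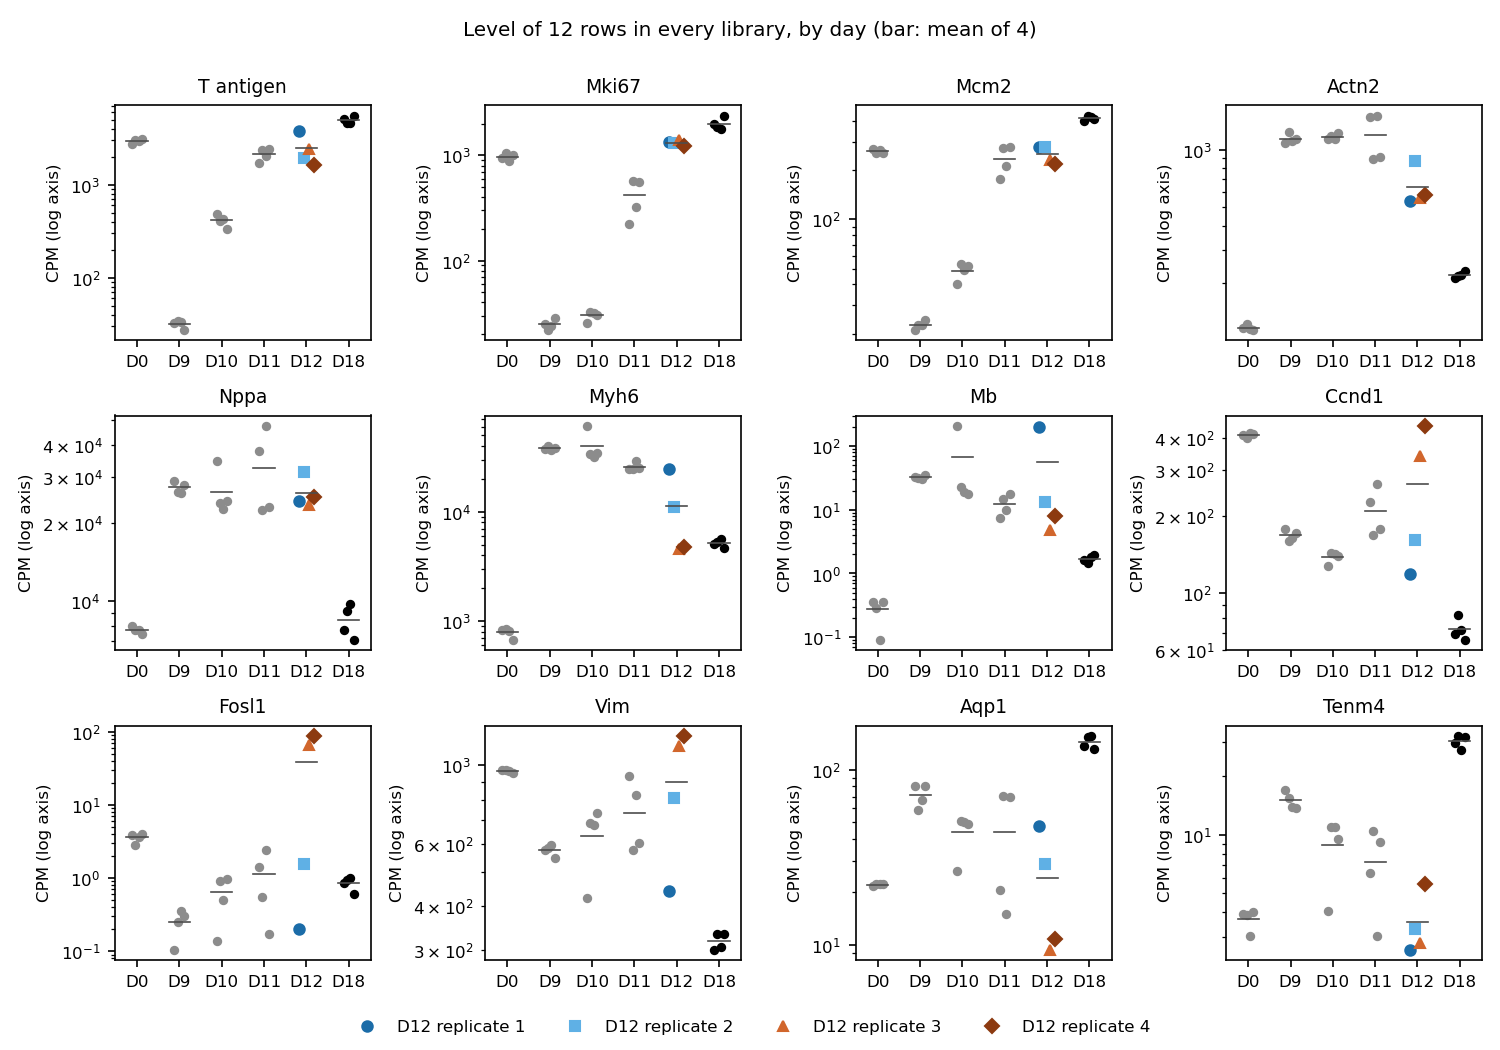
Level of 12 rows of the table in every library of 6 of the 9 days (y axis, CPM on a log scale; grey points D0 to D11, coloured symbols the 4 D12 libraries, black points D18, bar the mean of 4). The D18 points lie close together for each row, while the D12 libraries lie apart for Mb, Fosl1, Ccnd1, Vim and Myh6.

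Between D12 and D18, 30 of 53 genes of DNA replication and 31 of 55 genes of mitosis rose. Of the citric acid cycle and its entry 15 of 21 genes fell, as did 24 of 49 of oxidative phosphorylation and 18 of 36 sarcomere genes. Several of the main muscle genes, Myh6 and Tnnt2 among them, did not pass the test. In these bulk samples fewer cells of a type and less RNA per cell cannot be told apart. Of 11862 rat genes that had at least 1 CPM in at least 4 of the 8 libraries, out of 12943 in the table, 3525 (29.7%) were called changed by limma at an adjusted p under 0.05, a Benjamini-Hochberg value over all 11867 rows tested. The genes higher at D18 numbered 1941 (16.4%) and those lower 1584 (13.4%), and 327 (2.76%) and 294 (2.48%) of them changed at least 2-fold. The 4 libraries of each day did not overlap for 2165 genes higher at D18 (18.3%) and 1771 lower (14.9%). The split between the directions depends on the scale. On the authors' TPM values 3481 of the calls were higher and 884 lower, and the median gene lay at log2 0.19 there against 0.016 on the CPM scale. The count of calls fell to 2221 without D18 replicate 1, to 2216 without replicate 2 and to 2228 without replicate 3. Those higher were then 10.4, 10.2 and 10.3% of all genes and those lower 8.37, 8.53 and 8.52%, and 1968 genes were called whichever library was left out.

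The rows of the switch itself are given first. T antigen RNA stood at 3830, 1962, 2432 and 1637 CPM at D12 and 5089, 4578, 4658 and 5474 CPM at D18 (log2 fold change 1.08, SE 0.25, adjusted p = 0.0124). All 4 D18 libraries lay above all 4 D12 libraries, of which replicate 1 was the highest. At D9, without the drug, it had measured 32 ± 3 CPM (SD, n = 4). The row of TetR-KRAB, the doxycycline-controlled repressor, read 929, 456, 520 and 340 CPM at D12 and 1229, 1206, 1202 and 1268 CPM at D18 (log2 fold change 1.23, SE 0.26, adjusted p = 0.00743). The other construct rows also rose without overlap (log2 1.28) for the EMCV IRES, 1.16 for WHVPRE and 1.18 for HIV1-LTR. In all 5 construct rows D12 replicate 1 was the highest and replicate 4 the lowest of the D12 libraries.

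Many genes of DNA replication rose between D12 and D18. Of the 53 replication genes tested, 30 rose (56.6%, against 16.4% of all genes) and only Rpa1, a single-strand binding protein, fell (log2 -0.24), a call lost without any 1 of 7 libraries (all but D12 replicate 1). The other 22 were not called. Their median log2 fold change was 0.38, and 23 to 33 of them rose with 1 library left out. Mcm10, which takes part in activating the replicative helicase, stood at 30.5, 34.5, 38.1 and 32.7 CPM at D12 and 61.8, 60.8, 62.1 and 67.8 CPM at D18 (log2 fold change 0.89, SE 0.095, adjusted p = 0.000482). The 4 D12 libraries agree closely here and lie wholly below D18. Gins1, a subunit of the helicase, read 36.8, 29.5, 31.3 and 28.3 CPM at D12 and 56.4, 58, 62.4 and 56.8 CPM at D18 (0.89 on the log2 scale), and Timeless, which steadies the fork, read 65.7, 87.1, 75 and 69.2 CPM at D12 and 128, 135, 135 and 125 CPM at D18 (0.82). Mcm2, a helicase subunit, rose (log2 0.74, adjusted p = 0.00143). Pcna, the sliding clamp, rose (log2 0.38, adjusted p = 0.0257), a call lost without any 1 of 6 libraries. The median member lay log2 3.19, 3.20, 3.40 and 3.48 above the D9 mean in D12 replicates 1 to 4 and 3.66 above it at D18.

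Genes of mitosis moved in the same way. Of 55 tested, 31 rose (56.4%), with a median of 0.40 and none lower by limma, edgeR, DESeq2 or at an unadjusted p under 0.05, and 26 to 33 rises with 1 library left out. Espl1, the protease separase that frees sister chromatids, measured 112, 104, 105 and 84.2 CPM at D12 and 186, 192, 188 and 174 CPM at D18 (log2 fold change 0.87, SE 0.10, adjusted p = 0.000638). Kif18b, a kinesin of the spindle, measured 72.6, 75.3, 106 and 87.6 CPM at D12 and 152, 149, 160 and 157 CPM at D18 (log2 0.87). Cdca3, which triggers mitotic entry, measured 161, 126, 126 and 116 CPM at D12 and 216, 235, 245 and 255 CPM at D18 (log2 0.85). For each of the 3 genes the 2 days do not overlap. Top2a, the topoisomerase that untangles chromosomes, rose from 1122, 869, 1087 and 952 CPM at D12 to 1625, 1468, 1492 and 1701 CPM at D18 (log2 fold change 0.65, SE 0.13, adjusted p = 0.00551). Mki67, the proliferation antigen Ki-67, rose (log2 0.59), as did Ccnb1, cyclin B1 (log2 0.47, adjusted p = 0.0179, lost without D18 replicate 1 or 3).

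The promoters of both lists hold motifs that are known for such genes, and 3 are printed because the DNA lies in front of genes named above. The searched window is the 250 bases before the start, from the RefSeq promoter table of build GRCr8, for genes with a single start in it. The words searched on both strands were TTTGAA (the cell cycle homology region, read by the MuvB complex), CCAAT (the box bound by NF-Y) and TTTCGCGC or TTTGGCGC (E2F). Capitals mark the matches, and ATTGG and TTCAAA are CCAAT and TTTGAA on the other strand. The Espl1 window is chr7:135302466-135302715 on the plus strand, the Top2a window chr10:84473094-84473343 on the minus strand, and the Gins1 window chr3:160184670-160184919 on the plus strand.
Espl1: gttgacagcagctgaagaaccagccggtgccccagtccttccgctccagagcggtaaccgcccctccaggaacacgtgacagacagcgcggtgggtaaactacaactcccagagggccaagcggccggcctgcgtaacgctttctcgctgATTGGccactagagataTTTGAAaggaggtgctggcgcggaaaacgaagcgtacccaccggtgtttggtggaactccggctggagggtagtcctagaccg
Top2a: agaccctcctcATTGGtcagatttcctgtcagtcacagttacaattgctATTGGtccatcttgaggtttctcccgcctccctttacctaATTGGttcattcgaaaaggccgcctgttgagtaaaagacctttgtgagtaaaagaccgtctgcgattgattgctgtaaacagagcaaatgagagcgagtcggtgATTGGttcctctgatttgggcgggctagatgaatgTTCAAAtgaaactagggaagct
Gins1: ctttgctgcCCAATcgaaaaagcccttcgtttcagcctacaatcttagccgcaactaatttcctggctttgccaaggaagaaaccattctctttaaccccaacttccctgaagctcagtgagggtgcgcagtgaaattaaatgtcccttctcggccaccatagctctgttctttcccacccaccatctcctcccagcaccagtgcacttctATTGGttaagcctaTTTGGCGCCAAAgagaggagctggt

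Espl1 holds 1 TTTGAA and 1 CCAAT, Top2a 1 TTTGAA and 4 CCAAT, and Gins1 2 CCAAT and 2 E2F words, which overlap each other. Both TTTGAA and CCAAT stood in 20 of 45 mitosis promoters (44.4%), against 3.86% of the 8028 promoters of tested genes and 5.87% of all 33465. In the replication list both stood in 1 of 43 promoters, while an E2F word stood in 8 of 43 (18.6%), against 1.32% of tested genes. These lists were set by gene name, so their shares do not depend on the change between the days. Genes at least 2-fold higher at D18 had both words in 3.64% of 220 promoters and an E2F word in 1.36%, near the shares of tested genes. The word TGANTCA (N, any base), also searched, stood in 4.55% of them, 7.25% of genes at least 2-fold lower and 3.85% of tested genes. A binding word of the muscle factor MEF2 was searched too and was not found in the 26 sarcomere promoters searched and stood in 0.125% of tested genes. These are matches of letters, given as a description and not as sites.

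The regulators that act before S phase were split. Of 21 E2F, cyclin and retinoblastoma genes, 6 rose (28.6%, against 16.4% of all genes) and 5 fell (23.8%, against 13.4%). Cdk6, a kinase that starts the cycle, read 12, 17, 63.9 and 76.5 CPM at D12 and 7.19, 6.19, 6.04 and 6.83 CPM at D18 (log2 fold change -2.20, SE 0.53, adjusted p = 0.0143). Ccnd1, cyclin D1, its partner, read 119, 161, 340 and 445 CPM at D12 and 69.2, 82.3, 71.8 and 66 CPM at D18 (log2 fold change -1.68, SE 0.36, adjusted p = 0.00871). In both, D12 replicates 3 and 4 are far above replicates 1 and 2, and every D12 library is above every D18 library. Both calls held whichever library was left out. Ccnd3, cyclin D3, was even over the D12 libraries, at 109, 109, 94.9 and 104 CPM at D12 and 45.8, 53.3, 56.4 and 42.8 CPM at D18 (log2 -1.07). Cdk4 rose (log2 0.66), and E2f8, a repressor that appears late in S phase, went from 51.2, 51.5, 35.7 and 34.2 CPM at D12 to 93.1, 91.7, 86 and 99.2 CPM at D18 (log2 1.12).

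Some inhibitors of the cycle rose. Of 11 tested, 4 rose (36.4%, against 16.4% of all genes), 6 were not called and only Cdkn2b fell (log2 -0.73). Cdkn1b, the cyclin-dependent kinase inhibitor p27, measured 147, 154, 109 and 90.3 CPM at D12 and 232, 230, 228 and 270 CPM at D18 (log2 fold change 0.97, SE 0.17, adjusted p = 0.00328), and Cdkn1c, p57, measured 18.7, 21.4, 14.2 and 14.4 CPM at D12 and 34.2, 34.4, 39 and 31.7 CPM at D18 (log2 1.02). Gas1, a membrane protein of growth arrest, measured 24, 32.5, 17.7 and 17 CPM at D12 and 54.5, 60.4, 58.3 and 34.8 CPM at D18 (log2 1.19). In all 3 the days do not overlap, and D12 replicates 3 and 4 are lower than 1 and 2. Cdkn1a, p21, the best known target of p53, measured 149, 171, 214 and 205 CPM at D12 and 169, 185, 181 and 162 CPM at D18 and was not called (log2 fold change -0.072, SE 0.12, adjusted p = 0.69). Among 24 p53 targets 3 rose (12.5%, against 16.4% of all genes) and 4 fell (16.7%, against 13.4%), so the list as a whole lay near the background. The rises were in Bax, which permeabilises mitochondria (36.8, 40.8, 39.8 and 37.5 CPM at D12 and 86.6, 91.3, 90.3 and 66.3 CPM at D18), in Eda2r, a death receptor (log2 1.09), and in Sesn2, a stress sensor (log2 0.96). Rrm2b, a ribonucleotide reductase subunit, fell (log2 -0.80). Without D12 replicate 1 the rises numbered 6.

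Many sarcomere genes fell, and others did not pass the test. Of 36 tested, 18 fell (50%, against 13.4% of all genes) and 2 rose, with a median of log2 -0.62. With 1 library left out 14 to 21 fell, and the rises came to 5 without D12 replicate 1 and to none without D18 replicate 1, 2 or 4.  Genes of the Z-disc, where thin filaments are anchored, were among those that fell. Myoz2, calsarcin, read 396, 211, 252 and 243 CPM at D12 and 68.1, 66.1, 77.2 and 77 CPM at D18 (log2 fold change -1.89, SE 0.18, adjusted p = 0.000283). Actn2, alpha-actinin, read 541, 875, 560 and 582 CPM at D12 and 213, 219, 220 and 231 CPM at D18 (log2 fold change -1.50, SE 0.15, adjusted p = 0.000381). Trim54, a ubiquitin ligase of the sarcomere, read 44, 45.5, 37.7 and 51 CPM at D12 and 13.2, 12.6, 14.6 and 11.5 CPM at D18 (log2 -1.74). Every D12 library stood above every D18 library for these 3 genes, and Trim54 was even within both days. Tcap, which caps titin at the Z-disc, fell from 20.7, 17, 4.5 and 6.06 CPM at D12 to 2, 0.941, 2.18 and 1.11 CPM at D18 (log2 -2.40), with D12 replicates 1 and 2 above 3 and 4. The 2 rises were Myom2, an M-band protein (log2 1.43), and Nebl, nebulette (log2 0.81).

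Genes of the thick filament and the troponins were uneven among the D12 libraries, and of those given here only Myl4 was called. Myh6, the alpha myosin heavy chain, measured 24449, 11017, 4599 and 4750 CPM at D12 and 5042, 5330, 5606 and 4671 CPM at D18 (log2 fold change -0.77, SE 0.49, adjusted p = 0.26). D12 replicates 3 and 4 stood at the D18 level or below it, replicate 1 far above, so the days overlap and no change was called. Without D12 replicate 1 the difference was log2 -0.27, adjusted p = 0.48. Myh7, the beta chain, showed the same order at 269, 104, 45.7 and 48.5 CPM at D12 and 51.3, 50.8, 50.6 and 47.3 CPM at D18 (adjusted p = 0.217). Myl7, an atrial light chain, read 2786, 1898, 1010 and 992 CPM at D12 and 1669, 1928, 2244 and 1832 CPM at D18 (log2 0.33, adjusted p = 0.458). For Myl7 the D12 libraries lay on both sides of D18. Myl4, another atrial light chain, fell from 6615, 6799, 4993 and 4928 CPM at D12 to 2644, 2990, 3073 and 2641 CPM at D18 (log2 -1.03, adjusted p = 0.00358). Every D12 library stood above every D18 library for Myl4. Tnni3, cardiac troponin I, was 508, 184, 155 and 194 CPM at D12 and 147, 170, 176 and 171 CPM at D18 (log2 -0.47, adjusted p = 0.282), with D12 replicate 1 alone far from the rest. Tnnt2, cardiac troponin T, was 4623, 4601, 2833 and 3288 CPM at D12 and 2439, 2697, 3028 and 2819 CPM at D18 (adjusted p = 0.113).

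Mb, myoglobin, which stores oxygen in muscle, was uneven as well. It measured 202, 13.2, 4.83 and 7.94 CPM at D12 and 1.6, 1.45, 1.81 and 1.97 CPM at D18 (log2 fold change -3.10, SE 0.94, adjusted p = 0.0344). The fall was called and the days do not overlap, but its size depends on D12 replicate 1. Without that library the difference was log2 -1.95, adjusted p = 0.00132, and the call was lost without D12 replicate 2 or without any 1 of the D18 libraries. At D9 it had measured 32.5 ± 1.86 CPM (SD, n = 4). D12 replicate 1 held more Mb than the D9 mean, and the other D12 libraries held less.

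**Figure D2:**
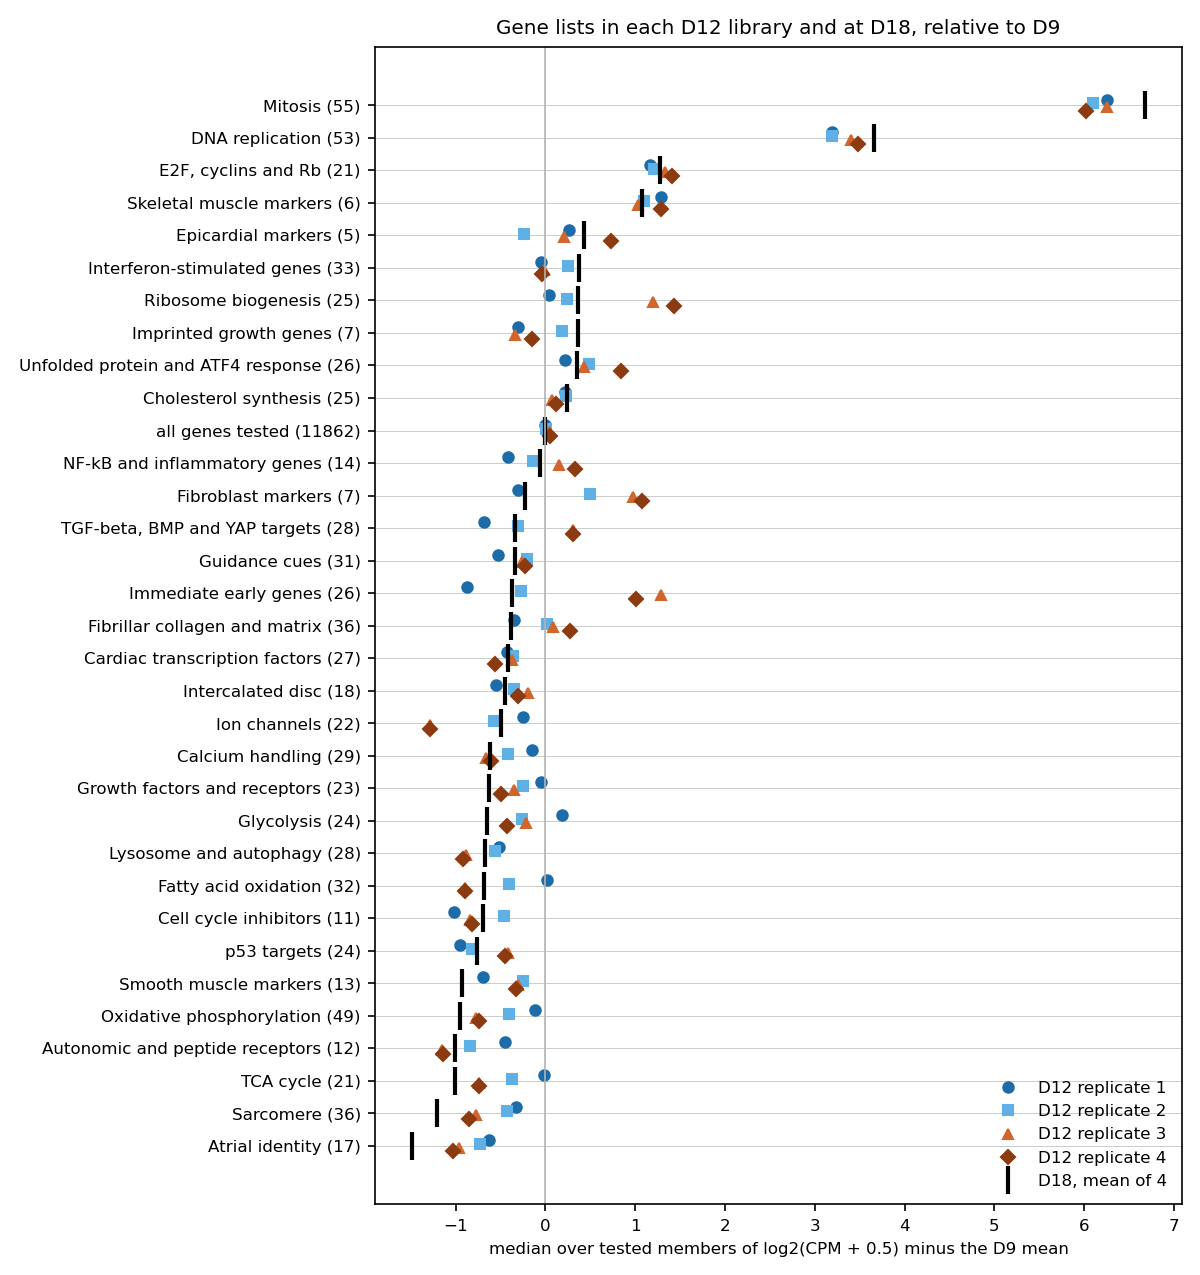
Median over the tested members of each gene list of log2(CPM + 0.5) minus the D9 mean (x axis), for each D12 library (coloured symbols) and for the mean of the 4 D18 libraries (black bar); numbers in brackets are tested members. For the TCA cycle and oxidative phosphorylation D12 replicate 1 lies near 0 and D18 near -1, and for ribosome biogenesis and immediate early genes D12 replicates 3 and 4 lie to the right of D18.

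Both natriuretic peptides fell, as did clusterin and sarcolipin. Of 17 atrial identity genes 6 fell (35.3%, against 13.4% of all genes) and only Tbx5 rose. Their median was log2 -0.35, which becomes 0.09 under quantile normalization. Nppa stood at 24215, 31407, 23491 and 25119 CPM at D12 and 7748, 9137, 9696 and 7087 CPM at D18 (log2 fold change -1.63, SE 0.25, adjusted p = 0.00215). The days are far apart and the D12 libraries close together. Under quantile normalization the difference was 0.21 and not called. That scaling gives every library the same set of values, so it cannot show a change in a gene that keeps its rank. Nppa had among the highest levels printed here on both days. Clu, clusterin, a secreted chaperone, read 3575, 2580, 2271 and 2584 CPM at D12 and 548, 600, 636 and 659 CPM at D18 (log2 fold change -2.15, SE 0.16, adjusted p = 9.2e-05). Sln, sarcolipin, the atrial inhibitor of the calcium pump, read 57.7, 39.4, 25.4 and 28.9 CPM at D12 and 6.48, 8.02, 8.62 and 7.96 CPM at D18 (log2 -2.15). Nppb, B-type natriuretic peptide, read 531, 754, 2495 and 1947 CPM at D12 and 394, 397, 430 and 429 CPM at D18 (log2 -1.52), with D12 replicates 3 and 4 above 1 and 2. Kcnj3, a subunit of the atrial acetylcholine-gated potassium channel, was not called at 115, 93.9, 49.6 and 50.6 CPM at D12 and 84.2, 75, 76.1 and 88.8 CPM at D18 (adjusted p = 0.664).

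Calcium handling genes gave 8 falls (27.6%, against 13.4% of all genes) and 2 rises (6.9%, against 16.4%) among 29. The falls numbered 5 without D18 replicate 2 or 3. The rises came to 4 without D12 replicate 1 and to 1 without D18 replicate 2. Casq2, the calcium buffer of the sarcoplasmic reticulum, measured 2013, 1485, 988 and 1031 CPM at D12 and 463, 470, 490 and 515 CPM at D18 (log2 fold change -1.45, SE 0.21, adjusted p = 0.00162), without overlap. The calcium pump Atp2a2 measured 12366, 9924, 6008 and 5424 CPM at D12 and 6795, 6517, 6557 and 6834 CPM at D18 and the release channel Ryr2 720, 531, 358 and 287 CPM at D12 and 318, 296, 264 and 276 CPM at D18. For both pump and channel D12 replicates 1 and 2 lay above D18 and replicates 3 and 4 near it or below, and neither was called (adjusted p = 0.535 and 0.0853). Itpr2, the inositol trisphosphate receptor, rose (log2 0.93) from a low level.

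Most channel genes that changed rose. Of 22 tested, 6 rose (27.3%, against 16.4% of all genes) and 1 fell (4.5%, against 13.4%), and 10 rose without D12 replicate 1. The falls numbered 2 by edgeR and 3 by DESeq2. Kcng2, a silent potassium channel subunit, stood at 25.9, 18.2, 7.64 and 6.33 CPM at D12 and 57.7, 59.1, 60.8 and 47.4 CPM at D18 (log2 fold change 2.13, SE 0.39, adjusted p = 0.00404). Kcnn3, a calcium-activated potassium channel, stood at 17.2, 10.1, 4.93 and 4.29 CPM at D12 and 20.4, 21.3, 22.9 and 24.1 CPM at D18 (log2 1.44), and Cacna1g, a T-type calcium channel, at 202, 165, 57.3 and 52.1 CPM at D12 and 260, 278, 281 and 245 CPM at D18 (log2 1.41). In each the D18 libraries lie above every D12 library, and D12 replicates 3 and 4 are the lowest. Kcnd3, the channel of the transient outward current, fell from 43.6, 47.7, 35.7 and 46 CPM at D12 to 15.1, 14.5, 14.7 and 19 CPM at D18 (log2 -1.42).

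Of 18 intercalated disc genes, which join heart cells end to end, 5 rose (27.8%, against 16.4% of all genes) and 4 fell (22.2%, against 13.4%). With 1 library left out the rises numbered 2 to 6, the fewest without D18 replicate 4, with 3 by edgeR, and the falls 0 to 5, with none without D18 replicate 2 or 3 and 1 without D18 replicate 1. Gja1, the gap junction protein connexin 43, rose from 472, 477, 535 and 498 CPM at D12 to 828, 786, 754 and 916 CPM at D18 (log2 fold change 0.73, SE 0.10, adjusted p = 0.00135). Fblim1, a filamin-binding protein, rose (log2 1.14), and Pkp2, plakophilin 2, a desmosome protein, fell (log2 -0.75, lost without D18 replicate 1, 2 or 3). Of 27 cardiac transcription factors 4 rose (14.8%, against 16.4% of all genes) and 8 fell (29.6%, against 13.4%). These counts came to 1 and 3 without D18 replicate 1, and to 2 and 4 without D18 replicate 3. They came to 1 and 6 without D12 replicate 4, to 4 and 5 without D12 replicate 3, and to 2 and 6 without D18 replicate 2 or 4. Tbx20 rose from 138, 113, 69.4 and 61.7 CPM at D12 to 169, 177, 175 and 186 CPM at D18 (log2 0.96). Esrra, a regulator of mitochondrial genes, fell (log2 -0.78), and Tbx3, a repressor of working muscle genes in the conduction system (log2 -0.98). Among the core factors of heart muscle, Nkx2-5 fell (log2 -0.38, adjusted p = 0.0379) and Tbx5 rose (log2 0.41, adjusted p = 0.0483), each call lost without any 1 of 6 libraries, and Gata4 was not called (log2 -0.30, adjusted p = 0.263). Of 12 autonomic and peptide receptors 2 rose and 2 fell (16.7% each, near the shares of all genes). No rise was called by edgeR or without any 1 of the D18 libraries. Npr2, a natriuretic peptide receptor, rose (log2 0.89, lost without D12 replicate 3 or any 1 D18 library).

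Mitochondrial genes that changed fell. Of 21 genes of the citric acid (TCA) cycle and its entry, 15 fell (71.4%) and none rose, with a median of log2 -0.58, and 9 fell without D18 replicate 1 or 2. By edgeR 16 fell and by DESeq2 18, and none rose by either tool or at an unadjusted p under 0.05 in limma. Dlat, a subunit of pyruvate dehydrogenase, read 178, 137, 104 and 102 CPM at D12 and 71.8, 66, 66.5 and 66.2 CPM at D18 (log2 fold change -0.90, SE 0.17, adjusted p = 0.00438). Dld, the subunit shared with other dehydrogenases, read 342, 227, 242 and 218 CPM at D12 and 160, 142, 146 and 132 CPM at D18 (log2 -0.80). Pdk4, the kinase that shuts pyruvate dehydrogenase, fell as well (log2 -0.93, lost without D18 replicate 2). All D12 libraries lie above D18 for Dlat and Dld, replicate 1 the highest. Of 49 genes of oxidative phosphorylation 24 fell (49.0%), with a median of -0.50, and none rose by limma, edgeR, DESeq2 or at an unadjusted p under 0.05. With a D18 library left out 12 to 14 fell: 12 without replicate 1, 12 without replicate 2, 13 without replicate 3 and 14 without replicate 4. Atp5g1, a ring subunit of ATP synthase, measured 360, 239, 170 and 200 CPM at D12 and 104, 114, 120 and 100 CPM at D18 (log2 fold change -1.09, SE 0.20, adjusted p = 0.00454). Ndufb8, a subunit of complex I, measured 322, 249, 164 and 184 CPM at D12 and 110, 132, 138 and 107 CPM at D18 (log2 -0.87). Cox6a2, the muscle form of a cytochrome oxidase subunit, read 61.2, 14.8, 2.64 and 7.94 CPM at D12 and 1.91, 1.97, 1.62 and 2.7 CPM at D18 (log2 -2.32, adjusted p = 0.0388, without D12 replicate 1 log2 -1.55, adjusted p = 0.0236).

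The D12 libraries differed in how far these mitochondrial genes had gone. In D12 replicate 1 all 21 TCA genes and 48 of 49 oxidative phosphorylation genes stood above the highest D18 library. The counts were 21 and 46 in replicate 2, 17 and 30 in replicate 3, and 18 and 33 in replicate 4. Of all 11862 genes, 4241, 4114, 4453 and 4426 stood above the highest D18 library in D12 replicates 1 to 4. Relative to the D9 mean the median TCA gene lay at log2 -0.01, -0.37, -0.74 and -0.75 in D12 replicates 1 to 4 and at -1.01 at D18. Ppargc1a, the coactivator PGC-1 alpha that drives mitochondrial biogenesis, ran on both sides of D18 at 49.3, 29.6, 9.45 and 8.38 CPM at D12 and 24.6, 22.7, 24.8 and 29.9 CPM at D18 (adjusted p = 0.531).

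Some genes of fatty acid oxidation and glycolysis fell too. Of 32 fatty acid genes 7 fell (21.9%, against 13.4% of all genes) and 1 rose. There were 4 falls when any 1 D18 library was left out and 3 rises without D12 replicate 1. Cpt2, which imports fatty acids into mitochondria, fell from 50.9, 53, 37.9 and 41.6 CPM at D12 to 22, 20.9, 21.8 and 26 CPM at D18 (log2 -0.99), as did Acot2, a mitochondrial thioesterase (28.7, 25, 15.2 and 18.6 CPM at D12 and 10.1, 12.2, 9.61 and 9.82 CPM at D18). Of 24 glycolysis genes 9 fell (37.5%, against 13.4% of all genes) and 1, Pfkfb1, rose. No rise was called by edgeR, or without D12 replicate 2 or 3 or any 1 D18 library, and 2 were without D12 replicate 1. Pgk1, phosphoglycerate kinase, stood at 1279, 659, 859 and 891 CPM at D12 and 405, 386, 408 and 293 CPM at D18 (log2 fold change -1.28, SE 0.20, adjusted p = 0.00206). Ldha, lactate dehydrogenase A, stood at 1929, 1226, 1870 and 1673 CPM at D12 and 859, 833, 870 and 774 CPM at D18 (log2 -0.98), and Pgam1, phosphoglycerate mutase, at 790, 705, 780 and 693 CPM at D12 and 361, 370, 384 and 332 CPM at D18 (log2 -1.03). The days did not overlap in these 3 glycolytic genes, and D12 replicate 1 was the highest in each.

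Immediate early genes, which growth factors and stretch switch on within minutes, differed widely among the D12 libraries. Of 26 tested, 3 fell (11.5%, against 13.4% of all genes) and 1 rose (3.8%, against 16.4%). The falls numbered 7 by edgeR and 12 by DESeq2. Without D12 replicate 1 they numbered 14, and without D12 replicate 4 or any 1 D18 library there was 1. In D12 replicates 3 and 4, 25 and 24 of the 26 stood above the highest D18 library, in replicate 2 it was 12, and in replicate 1 it was 3. Of all 11862 genes, 4241, 4114, 4453 and 4426 stood above it in D12 replicates 1 to 4. Fosl1, a partner in the transcription factor AP-1, read 0.202, 1.54, 65.7 and 87.2 CPM at D12 and 0.857, 0.941, 1.01 and 0.612 CPM at D18 (log2 fold change -2.83, SE 1.40, adjusted p = 0.154). Replicates 1 and 2 of D12 surround the D18 level and replicates 3 and 4 are far above it. Fosb, another partner, read 1.18, 3.92, 59 and 41 CPM at D12 and 0.857, 1.17, 1.34 and 0.612 CPM at D18 (log2 -2.99, adjusted p = 0.049, called, although the days overlap). Myc, which drives growth and ribosome synthesis, read 5.91, 10.9, 35.3 and 46.1 CPM at D12 and 5.61, 5.9, 6.88 and 5.88 CPM at D18 (log2 -1.51, adjusted p = 0.0633). Without D12 replicate 1 the difference in Myc was log2 -2.03, adjusted p = 0.00501 and that in Fosl1 log2 -4.08, adjusted p = 0.0176. Klf2, a factor that flow and statins induce in vessels, went against the list, from 3.14, 9.14, 17 and 18.5 CPM at D12 to 39, 41.7, 39.8 and 30.6 CPM at D18 (log2 1.87). Epha2, an ephrin receptor chosen for its spread at D12, read 4.7, 17.4, 147 and 153 CPM at D12 and 14.7, 16, 12.9 and 13.8 CPM at D18 and was not called.

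Genes of ribosome biogenesis were also higher in D12 replicates 3 and 4. None of 25 genes was called by limma or edgeR, while 2 were lower at an unadjusted p under 0.05 and 5 fell by DESeq2, and 7 fell without D12 replicate 1. All 25 stood above the highest D18 library in D12 replicate 3 and in replicate 4, while 3 did in replicate 2 and none in replicate 1. Of all 11862 genes, 4241, 4114, 4453 and 4426 did in D12 replicates 1 to 4. Nop58, of the box C/D complexes that methylate ribosomal RNA, read 107, 118, 293 and 338 CPM at D12 and 130, 118, 125 and 143 CPM at D18 (adjusted p = 0.264). Mybbp1a, a nucleolar protein, read 76.8, 111, 265 and 322 CPM at D12 and 99.3, 101, 100 and 98 CPM at D18 (adjusted p = 0.196). These 2 genes were chosen after their values were seen. In both of them D12 replicates 1 and 2 sit near D18 and replicates 3 and 4 are well above it.

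Most growth factor genes that changed fell. Of 23 ligands, receptors and binding proteins 8 fell (34.8%, against 13.4% of all genes) and 2 rose (8.7%, against 16.4%). Fgf2, basic fibroblast growth factor, measured 9.2, 9.55, 13.3 and 17.6 CPM at D12 and 2.13, 2.25, 2.65 and 1.88 CPM at D18 (log2 fold change -2.20, SE 0.21, adjusted p = 0.000329). Hbegf, a ligand of the EGF receptor, measured 30.4, 38.4, 85.2 and 89.3 CPM at D12 and 11.8, 14.3, 13.4 and 12.6 CPM at D18 (log2 -2.03). Each D12 library lay above D18, with replicates 3 and 4 the highest. Erbb3, a neuregulin receptor, rose from 1.01, 1.14, 2.02 and 1.3 CPM at D12 to 5.87, 5.45, 4.72 and 4.97 CPM at D18 (log2 1.65). Of 28 genes of the TGF-beta, BMP and YAP pathways 4 fell (14.3%, against 13.4% of all genes) and 2 rose (7.1%, against 16.4%). By edgeR and by DESeq2 10 fell, and 12 fell without D12 replicate 1, while 1 rose without any 1 D18 library. Ltbp1, which holds latent TGF-beta in the matrix, read 40.9, 95.6, 252 and 337 CPM at D12 and 16.9, 20.2, 18 and 18.7 CPM at D18 (log2 fold change -2.84, SE 0.55, adjusted p = 0.00547), and Tgfb1 itself read 11.6, 19.2, 19.6 and 20.8 CPM at D12 and 46.4, 45.2, 46.1 and 38.9 CPM at D18 (log2 1.32). Ankrd1, a stretch-responsive YAP target of heart muscle, read 2309, 3476, 6423 and 5337 CPM at D12 and 1631, 1471, 1635 and 1561 CPM at D18 (log2 -1.37), and Id4, an inhibitor of basic helix-loop-helix factors, fell (log2 -1.58).

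Matrix genes gave 10 falls (27.8%, against 13.4% of all genes) and 5 rises (13.9%, against 16.4%) among 36, and 18 falls without D12 replicate 1. The falls numbered 17 by DESeq2, and the rises 3 by edgeR and without D12 replicate 2 or 3 or any 1 D18 library. Col12a1, a collagen that decorates fibrils, stood at 384, 697, 1112 and 1138 CPM at D12 and 168, 151, 137 and 157 CPM at D18 (log2 fold change -2.32, SE 0.30, adjusted p = 0.00105). Lox, the enzyme that cross-links collagen, stood at 191, 232, 217 and 209 CPM at D12 and 54.8, 58, 51.7 and 71.1 CPM at D18 (log2 fold change -1.85, SE 0.11, adjusted p = 4.11e-05). Lox was even within both days, while Col12a1 was higher in D12 replicates 3 and 4. Fbln1, fibulin 1, went the other way from 43.8, 34, 34.2 and 32.2 CPM at D12 to 121, 130, 128 and 134 CPM at D18 (log2 1.83). Col1a1, the main collagen of fibroblasts, was low and not called (3.66, 4.89, 3.31 and 8.16 CPM at D12 and 4.29, 5.45, 4.3 and 2.97 CPM at D18). Vim, vimentin, an intermediate filament of immature and mesenchymal cells, read 441, 809, 1131 and 1209 CPM at D12 and 301, 334, 307 and 333 CPM at D18 (log2 fold change -1.39, SE 0.28, adjusted p = 0.00596), and Des, desmin, the muscle filament, read 1389, 1610, 2172 and 2304 CPM at D12 and 914, 1022, 975 and 892 CPM at D18 (log2 -0.95). Both filaments fell, and D12 replicate 1 was the lowest D12 library in each. Acta2, smooth muscle actin, was not called at 2543, 4572, 4293 and 3330 CPM at D12 and 3560, 3951, 4079 and 3699 CPM at D18.

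Guidance cues, which steer growing axons and vessels, split into 7 rises and 4 falls among 31, and into 11 and 9 without D12 replicate 1. The 7 and 4 made 22.6% and 12.9%, against 16.4% and 13.4% of all genes. Sema6a, a transmembrane semaphorin, read 13.5, 29, 95.7 and 74.3 CPM at D12 and 5.78, 6.02, 4.67 and 4.33 CPM at D18 (log2 -2.88). Efnb2, ephrin B2, read 19.9, 25.8, 69.8 and 88.3 CPM at D12 and 13, 13.9, 12.9 and 12.3 CPM at D18 (log2 -1.66). Both had D12 replicates 3 and 4 far above the other libraries. Ntn1, netrin 1, rose from 1.53, 1.95, 2.88 and 3.51 CPM at D12 to 11.6, 10.6, 9.93 and 7.06 CPM at D18 (log2 1.82). Kdr, the VEGF receptor listed among endothelial markers, rose from 44, 85.6, 45.3 and 30.8 CPM at D12 to 198, 187, 185 and 206 CPM at D18 (log2 fold change 2.00, SE 0.25, adjusted p = 0.000882), while it had measured 264 ± 16.3 CPM at D9 (SD, n = 4), so D12 was below both D9 and D18.

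Many interferon-stimulated genes rose. Of 33 tested, 13 rose (39.4%, against 16.4% of all genes) and 1, Irgm, fell, with a median of log2 0.31 and 8 rises without D18 replicate 3. Psmb9, a subunit of the immunoproteasome, read 22.2, 20.1, 11.4 and 11.2 CPM at D12 and 37, 46, 44.9 and 32.6 CPM at D18 (log2 fold change 1.33, SE 0.24, adjusted p = 0.00383). Bst2, tetherin, which holds viruses on the membrane, read 14.6, 18.5, 12.3 and 14 CPM at D12 and 34.5, 38.2, 40.4 and 27.6 CPM at D18 (log2 1.22). Ifi44l rose from 0.548, 0.633, 0.976 and 0.858 CPM at D12 to 2.44, 2.82, 2.14 and 2.47 CPM at D18, and neither day overlaps the other in any of the 3. Cxcl12, a chemokine that draws stem cells and leukocytes, was 1 of only 2 inflammatory genes called among 14, at 1.99, 0.937, 0.405 and 0.636 CPM at D12 and 6.66, 6.02, 7.49 and 5.42 CPM at D18 (log2 2.31). The other, Cx3cl1, fell (log2 -0.50), a call lost without D12 replicate 4 or D18 replicate 1, 2 or 4. Rises and falls in this list made 7.1% each, against 16.4% and 13.4% of all genes. Without D12 replicate 1 the falls in this list numbered 5, and by edgeR or DESeq2 3.

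Stress and metabolic lists were mixed. Of 26 genes of the unfolded protein and ATF4 responses 7 rose (26.9%, against 16.4% of all genes) and 4 fell (15.4%, against 13.4%). DESeq2 gave 8 falls. The rises included targets of ATF4 such as Psat1, an enzyme of serine synthesis (42.3, 48.9, 26 and 28.3 CPM at D12 and 105, 95.2, 102 and 103 CPM at D18, log2 1.51), and Chac1, which breaks down glutathione (log2 1.70). The falls included Xbp1, a factor of the unfolded protein response (42.2, 59.3, 80.6 and 109 CPM at D12 and 24.6, 25.4, 20.9 and 24.9 CPM at D18, log2 -1.50), and Hspa5, the main chaperone of the endoplasmic reticulum (log2 -1.10). Of 28 lysosome genes 6 rose by limma (21.4%, against 16.4% of all genes). None fell by limma or edgeR, while 3 were lower by DESeq2 and 3 at an unadjusted p under 0.05. Grn, progranulin, read 471, 409, 221 and 213 CPM at D12 and 893, 970, 995 and 981 CPM at D18 (log2 fold change 1.63, SE 0.25, adjusted p = 0.00195), with no overlap and D12 replicates 3 and 4 the lowest. Of 25 cholesterol genes 2 rose (8%, against 16.4% of all genes) and 3 fell (12%, against 13.4%). There were 6 rises without D12 replicate 1 and 1 without D12 replicate 3 or 4 or D18 replicate 1, 2 or 3. Of 7 imprinted growth genes tested 3 rose, Cdkn1c, Plagl1 (log2 1.30) and Grb10, and 1 fell, Zim1, a call held only without D12 replicate 3. In this short list these made 42.9% and 14.3%, against 16.4% and 13.4% of all genes.

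**Figure D3:**
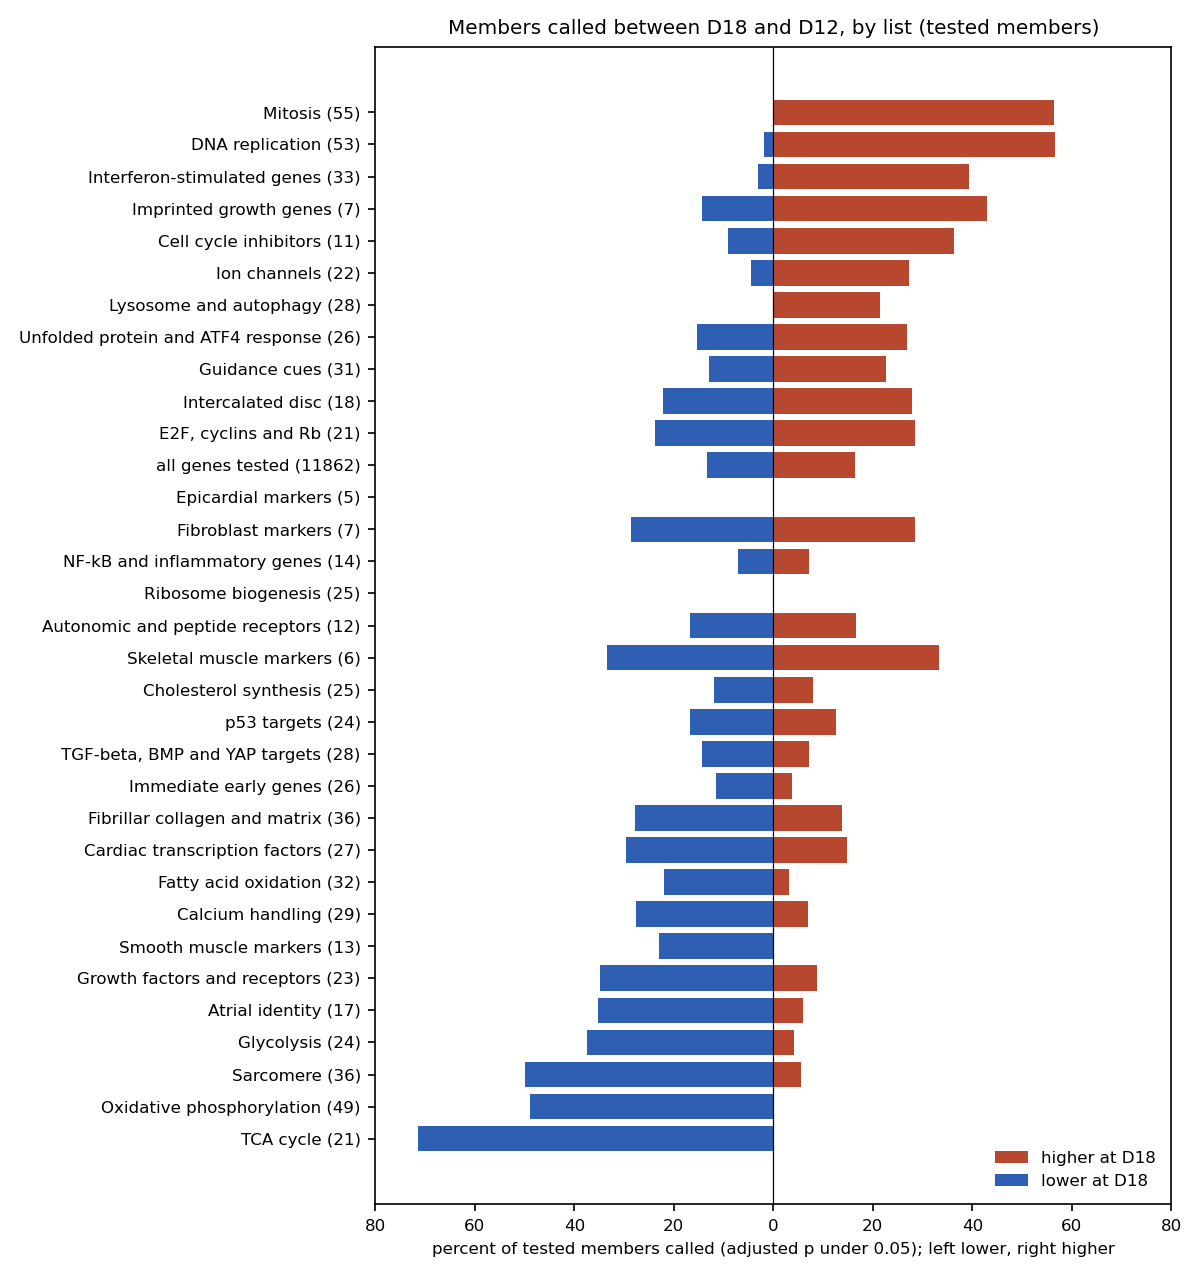
Percent of the tested members of each list called between D12 and D18 at an adjusted p under 0.05 (bars to the right higher at D18, to the left lower; tested members in brackets). Replication and mitosis lists reach 56.6% and 56.4% higher and the TCA list 71.4% lower, beside 16.4% and 13.4% of all genes.

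The remaining marker lists had few members, so that 1 gene moves their shares a lot. Of all genes 16.4% rose and 13.4% fell. The share that fell was 23.1% for smooth muscle, 28.6% for fibroblast and 33.3% for skeletal muscle markers. The share that rose was 0, 28.6 and 33.3%. Of 13 smooth muscle markers 3 fell (Des, Synpo2 and Lmod1; 5 without D12 replicate 1), of 7 fibroblast markers 2 rose (Fbln1 and Ddr2) and 2 fell (Col3a1 and Vim), and of 6 skeletal muscle markers 2 rose (Ckm and Mylpf) and 2 fell (Myh2 and Myh8), with no rise called without D12 replicate 2 or 4 or D18 replicate 1, 2 or 4. Myh2, a fast skeletal myosin, read 51.9, 112, 72.5 and 157 CPM at D12 and 21.3, 28.4, 26.4 and 22 CPM at D18 (log2 -1.87). Ckm, muscle creatine kinase, was held by D12 replicate 1 at the D18 level: 10.2, 3.52, 3.5 and 3.51 CPM at D12 and 8.07, 10.6, 11.2 and 9.6 CPM at D18 (log2 1.01, adjusted p = 0.0365, without that library log2 1.36, adjusted p = 0.000395). None of 5 epicardial markers and neither of 2 Schwann cell and neuron markers was called by limma, edgeR or DESeq2, and at an unadjusted p under 0.05 there was 1 epicardial marker, higher at D18. Of 3 endothelial markers Kdr rose and Egfl7 fell, of 4 ventricular markers Hey2 fell, and the calls of Egfl7 and Hey2 were lost without any 1 of several libraries. The 1 macrophage marker tested, Cd14, fell.

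The 10 largest falls without overlap between the days were in genes of varied function. Tiam2, an exchange factor for the GTPase Rac, read 14, 10.4, 49.3 and 49.9 CPM at D12 and 1.65, 2.25, 1.62 and 2.29 CPM at D18 (log2 fold change -3.37, SE 0.48, adjusted p = 0.00147). Wisp2, a secreted matrix protein of the CCN family, read 11.6, 41.7, 53.1 and 92.5 CPM at D12 and 3.63, 5.79, 4.16 and 4.83 CPM at D18 (log2 fold change -2.99, SE 0.51, adjusted p = 0.00325). In both genes D12 replicates 3 and 4 were the highest libraries. Slc9a3, a sodium-proton exchanger, was low but even at 4.58, 3.92, 7.17 and 5.95 CPM at D12 and 0.593, 0.428, 0.399 and 0.431 CPM at D18 (log2 -2.59), and P2rx5, an ATP-gated channel, read 10.3, 12.1, 21.7 and 22.1 CPM at D12 and 2.7, 1.97, 2 and 2.2 CPM at D18 (log2 -2.58). Dgkg, a diacylglycerol kinase, fell (log2 -2.63), Nav3, a neuron navigator protein, fell (log2 -2.72) and Scg2, secretogranin II of secretory granules, fell (log2 -2.61), each with D12 replicates 3 and 4 above 1 and 2. Mb, Sema6a and Ltbp1, given above, complete the 10 largest falls.

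Among the largest rises were membrane proteins. Tenm4, a teneurin, read 2.57, 3.27, 2.79 and 5.56 CPM at D12 and 29.6, 32, 27.2 and 31.8 CPM at D18 (log2 fold change 2.97, SE 0.21, adjusted p = 8.46e-05). Aqp1, the water channel, read 47.4, 28.7, 9.36 and 10.8 CPM at D12 and 137, 153, 155 and 131 CPM at D18 (log2 fold change 2.86, SE 0.44, adjusted p = 0.00207). At D9 Tenm4 had measured 15 ± 1.54 CPM and Aqp1 71.7 ± 10.4 CPM (SD, n = 4), so for both genes D12 lay below D9 and D18 above it. Atp1b2, a beta subunit of the sodium-potassium pump, read 2.05, 1.95, 1.5 and 1.74 CPM at D12 and 12.1, 15.5, 15.3 and 15.9 CPM at D18 (log2 fold change 2.72, SE 0.15, adjusted p = 1.85e-05), and Sorcs2, a sorting receptor, 4.87, 6.51, 7.79 and 4.56 CPM at D12 and 36.5, 39.3, 40.5 and 38.5 CPM at D18 (log2 2.64). In these 4 genes the lowest D18 library was more than 2 times the highest D12 library. Kcnh6, a potassium channel (log2 2.76), Cilp2, a cartilage protein (2.63), and Hpcal4, a neuronal calcium sensor (2.47), also rose. Fam171b (2.42), Duox1, a dual oxidase (2.34), and RGD1560492 (2.60) complete the 10. All 10 were picked among genes whose days do not overlap, so the lack of overlap is part of the choice. Some were near the floor at D12. Kcnh6 read 1.59, 0.532, 0.5 and 0.36 CPM there, Duox1 0.721, 0.329, 0.214 and 0.194 CPM, and RGD1560492 1.01, 0.127, 0.119 and 0.138 CPM. They entered the test through their D18 libraries.

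**Figure D4:**
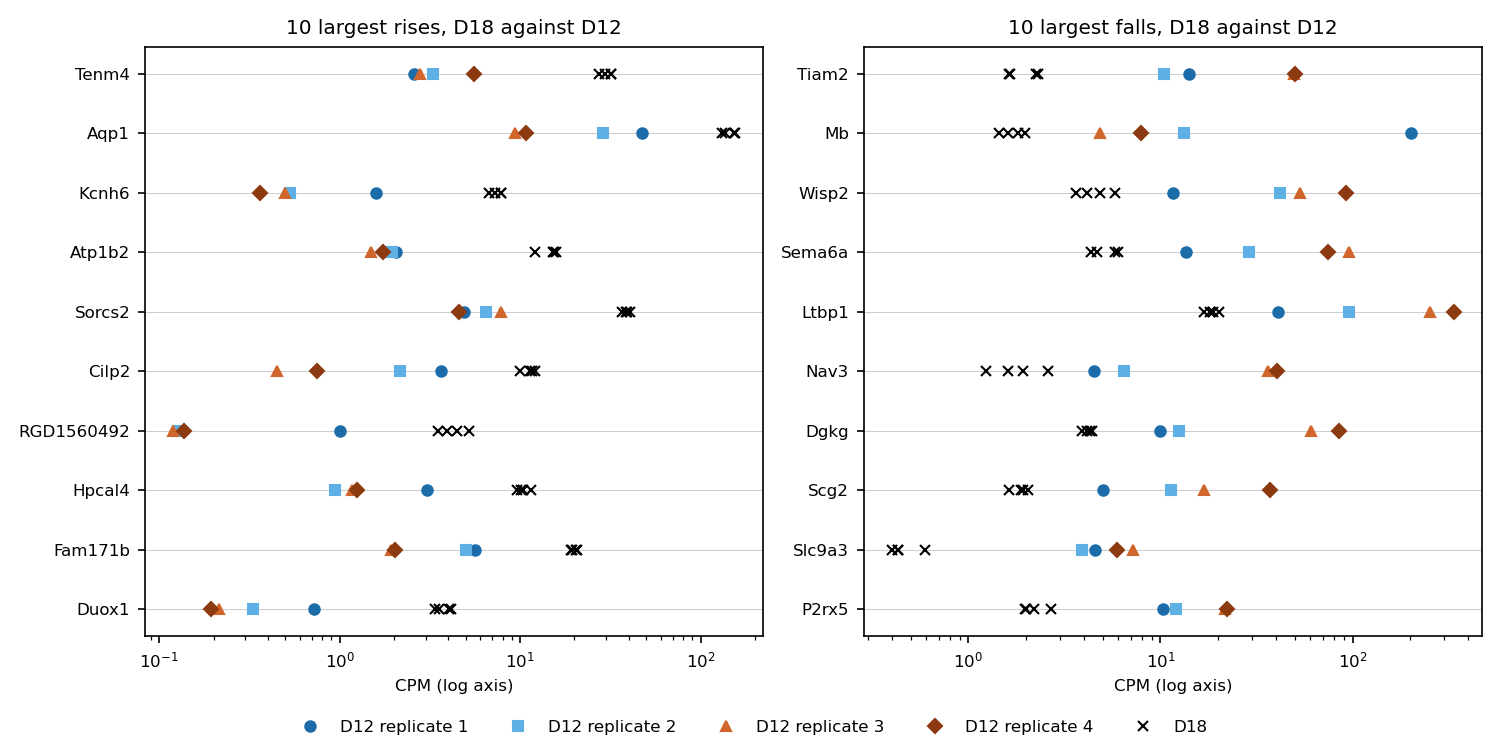
CPM (x axis, log scale) in each D12 library (coloured symbols) and each D18 library (crosses) for the 10 largest rises and the 10 largest falls whose days do not overlap. The D12 symbols spread along the axis for Mb, Aqp1 and Cilp2 and lie together for Atp1b2 and Sorcs2.

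The distance from D9 to D18 was covered to different degrees in each D12 library. For genes at least 2-fold apart between D9 and D18, the share of that difference already present was computed library by library as a description, since D18 enters it too. Among the 1468 genes higher at D18 than at D9 the median share was 84.3, 82.2, 81.0 and 82.0% in D12 replicates 1 to 4. Among the 847 genes lower at D18 it was 44.5, 51.7, 77.2 and 82.4%. The shares of the gains were alike in the 4 libraries, and the shares of the losses were smaller in replicates 1 and 2 than in 3 and 4.

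**Figure D5:**
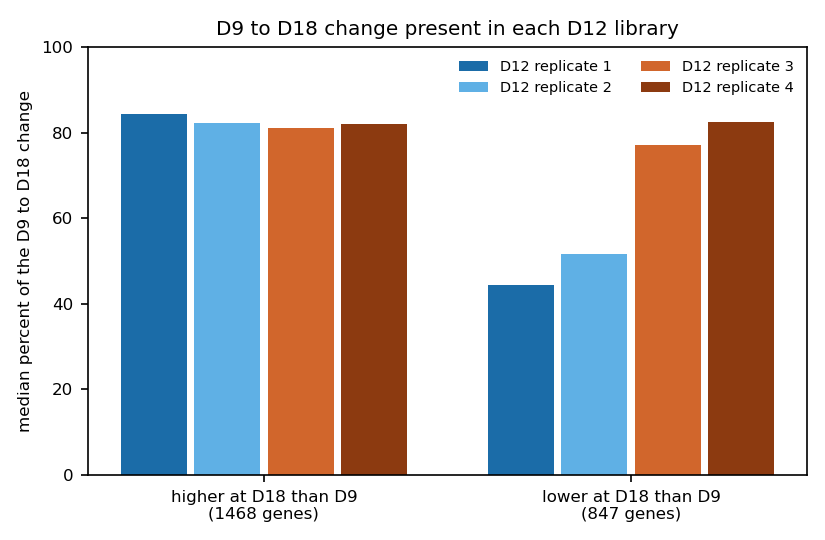
Median percent (y axis) of the D9 to D18 difference in log2(CPM + 0.5) that each D12 library had reached, over 1468 genes higher at D18 and 847 lower, with 1 bar per D12 library. The bars on the left stand between 81.0 and 84.3%, those on the right between 44.5 and 82.4%.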

How the data were processed

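The authors deposited a table of CPM per gene and library and a table of TPM, with a column per sample. The deposited CPM values are a signal of whole reads times 1 step per library, checked on the file (100% of values of up to 20 reads whole to within 0.1 read), and the columns of the 8 libraries sum to 868992 to 967629. The submitters' processing notes name edgeR 3.26.8 and Rnor_6.0 without their roles, and which aligner and counter were used is not given in the sources used here. Listed are 12943 rat genes and 5 construct rows, each with reads in every library. In 18 rows the symbol was unusable, and 151 repeat a symbol.

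Rows reaching 1 CPM in 4 or more of the 8 libraries were tested with limma 3.58.1 (R 4.3.3, trended eBayes) on log2(CPM + 0.5). Only the 8 libraries entered, leaving 6 residual degrees of freedom. The fit used 1 variance per gene for both days, although D12 spread more than D18 (median SD 0.247 and 0.119). A call lost without a D18 library therefore need not depend on the values of that library. The pseudocount understates the change of low genes. Benjamini-Hochberg adjustment covered all rows, two-sided. The fit was first tested on simulated data. Replicate numbers did not pair the samples (correlations -0.14 to 0.12). The libraries of a day differed by more than sampling noise (lowest mean chi-square 3.15). Alternatives changed the pseudocount, filter, scaling, tool, libraries in the fit and weights. edgeR 4.0.16 and DESeq2 1.42.0 ran on recovered reads.

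The members, the 36 gene lists and the tests were chosen with earlier results of these data known. Genes were named by a rule: the 10 largest changes each way without overlap, the construct rows, up to 3 called members per list by size, the 5 with the largest SD at D12, and a fixed list of muscle and cell cycle genes. Other list members named in the report, and the genes of the closing observations, were chosen after their values were seen. Symbols are those of the table, and 7 names were matched through RefSeq synonyms. Promoters come from RefSeq (GRCr8). Some genes are not reported here. Nearly identical genes, such as actins or myosins, may share reads.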

Additional observations from a re-analysis of the deposited data

Results flagged for a closer look

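Of 320 groups of 4 libraries tested for a library apart from the others, 20 had one whose gap to its nearest neighbour, over the range of the group, was above Dixon's 95% critical value. Chance gives about 1 in 20 groups where genes are not picked by their values. Some flagged genes were so picked, such as Mb, chosen in part for its spread at D12. At D12 replicate 1 was the highest for Mb (202 CPM), Tnni3 (508), Ckmt2 (109), Ckm (10.2), Me1 (323), Kcnh6 (1.59), Hpcal4 (3.03) and RGD1560492 (1.01), and the lowest for Lmod1 (106). Replicate 2 was the highest for Actn2 (875) and Atp6v0d1 (122). At D18 replicate 4 was the highest for Cdkn1b (270), Kcnd3 (19.0) and WHVPRE (650) and the lowest for Gata4 (324). Replicate 1 was the highest for Slc9a3 (0.593) and Dlat (71.8) and the lowest for Atp1b2 (12.1). Replicate 2 was the highest for Osgin1 (1.45) and replicate 3 for Cd14 (0.822). All values are CPM, and no cause was tested.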

How the results depend on the processing

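The count of 3525 calls ranged from 2216 to 4446 with 1 library left out, 1204 to 2360 of them higher and 993 to 2086 lower. It was 5943 (3097 higher, 2846 lower) with all 36 libraries in the fit, and 7007 (3714 and 3293) with weights per library, where 545 list members were called. The TPM table gave 3481 higher and 884 lower, and median shares of the D9 to D18 change, gains and losses together, of 67.5, 69.8, 74.7 and 75.7% in D12 replicates 1 to 4, against 72.2, 72.3, 80.1 and 82.1% in CPM. For the 382 losses alone they were 42.5, 50.8, 84.2 and 92.8%. With the replicate block it was 2750, but same-numbered samples did not deviate together, so the pairing is not used. edgeR gave 3518, DESeq2 4363. The direction reversed for Nppa (0.21) and Atp2a2 (0.21) under quantile normalization, for Myh6 (0.0020), Atp2a2 (0.10) and Ckmt2 (0.12) with weights, and for Cdkn1a (0.11) in TPM. With 1 library left out the difference ran from -0.017 to 0.38 for Kcnj3, from -0.078 to 0.20 for Acta2, from -0.31 to 0.084 for Col1a1, from -0.17 to 0.0044 for Cdkn1a and from -1.14 to 0.072 for Ckmt2, reversing in 1 or 2 of these fits. Apart from Nppa none of these was called, and the cause was not tested. Quantile normalization cannot show a change in a gene that keeps its rank, as said above for Nppa. Fewer samples enter each leave-out fit, and its variance is shared by both days, which spread unequally. Depth limits genes near 1 CPM most, where 1 read is worth 0.0220 to 0.0288 CPM.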

Other observations

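Some gene groups outside the lists also moved between D12 and D18. They were chosen after their values were seen, so they are given as values only. Several genes of the response to oxidants, which form no tested list, fell. Hmox1, heme oxygenase, read 27.3, 44.6, 114 and 195 CPM at D12 and 13.5, 15.3, 15.1 and 13.8 CPM at D18 (log2 fold change -2.29, SE 0.51, adjusted p = 0.01), and Srxn1, sulfiredoxin, read 8.96, 9.09, 12.7 and 16 CPM at D12 and 2.35, 2.37, 2.14 and 1.43 CPM at D18 (log2 fold change -2.22, SE 0.22, adjusted p = 0.000376). Osgin1 read 5.97, 5.29, 6.21 and 7.61 CPM at D12 and 0.901, 1.45, 0.916 and 0.975 CPM at D18 (log2 -2.12). Every D12 library lay above D18 in these 3 genes, and Me1 (log2 -1.60), Gss (-1.59), Nqo1 (-1.13) and Gclm (-1.11) also fell. Sqstm1, another gene known from that response, was not called (log2 -0.25, adjusted p = 0.09995).

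Further muscle genes fell. Klhl41, a kelch protein of the sarcomere, measured 129, 114, 123 and 143 CPM at D12 and 33.3, 34.7, 37.1 and 35.1 CPM at D18 (log2 fold change -1.84, SE 0.092, adjusted p = 1.53e-05). Nrap (log2 -1.56), Sgca (-1.86), Cav3 (-1.77) and Hspb7 (-2.25) fell too. Cytoplasmic actins rose: Actb read 754, 1711, 3480 and 3175 CPM at D12 and 6155, 6435, 6194 and 6739 CPM at D18 (log2 fold change 1.71, SE 0.43, adjusted p = 0.0158) and Actg1 76.6, 110, 257 and 208 CPM at D12 and 338, 372, 364 and 439 CPM at D18 (log2 1.37). These actins are nearly identical and may share reads.

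Subunits of the sodium-potassium pump moved in opposite directions. Atp1b1, the beta-1 subunit, read 847, 736, 1043 and 1098 CPM at D12 and 408, 370, 378 and 468 CPM at D18 (log2 fold change -1.18, SE 0.15, adjusted p = 0.000866). Atp1b2 rose, as given above. Notch1 (log2 1.49) and Notch3 (log2 1.54) rose from low levels.

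Other genes were highest in D12 replicates 3 and 4. Thbs1, thrombospondin 1, read 69.8, 243, 1440 and 1124 CPM at D12 and 120, 106, 104 and 122 CPM at D18 and was not called (adjusted p = 0.113). Cd44, a hyaluronan receptor, read 170, 225, 665 and 714 CPM at D12 and 146, 138, 139 and 149 CPM at D18 (log2 -1.36, adjusted p = 0.039), a call that held in 2 of the 8 fits with 1 library left out.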
